A study of Mus musculus with 29 samples.

Results

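Chemokines and chemokine receptors were followed in mouse lung after a single synthetic glucocorticoid was given. The family was taken as a named list of 45 genes, 32 ligands and 13 receptors, and each gene was read by its brightest probe, matched to the gene through the transcript accession of the array. Of the 45 genes, 44 had a matched probe and 42 were tested, 30 ligands and 12 receptors, among 15346 genes in all. Cxcl11 matched no probe. Cxcl2, a neutrophil attractant, was well above background on 3 of 29 arrays and Ccr1, a receptor of monocytes and neutrophils, on 2 of 29, so both stayed under the filter on dim probes. Whole lungs came from C57BL/6 mice 6 to 8 weeks old that were wild type or lacked Klf15 (Klf15-/-), a zinc-finger transcription factor. The labels state the knockout for the animal, not for a cell type, and the making of the allele is not described in the labels. Lungs were taken 4 or 8 h after saline or after dexamethasone (2.5 mg/kg), which gives 8 groups. There were 4 arrays each for wild-type saline at 4 h, wild-type dexamethasone at 4 h, knockout dexamethasone at 4 h, knockout saline at 8 h and knockout dexamethasone at 8 h, and 3 arrays each for wild-type saline at 8 h, wild-type dexamethasone at 8 h and knockout saline at 4 h.

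Chemokines are small secreted or membrane-anchored proteins that guide leukocytes along a gradient, and they act through receptors coupled to inhibitory G proteins. Inflammatory chemokines are made on demand by macrophages, epithelium and endothelium when NF-kB, AP-1 or interferon signalling is active, whereas homeostatic chemokines are made steadily and place lymphocytes and dendritic cells within tissues. The receptors are carried mainly by leukocytes. Glucocorticoids act through the glucocorticoid receptor, a nuclear receptor that induces some genes and restrains many inflammatory ones.

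Values are log2 signals relative to the 75th percentile of each array, which was 1636 to 3332 intensity units; a value of 0 is the level of that percentile, and levels of different genes are not compared because probes differ. Between 75.5% and 88.5% of spots were well above background on an array, and correlations between arrays of a group ran from 0.971 to 0.992 over the genes tested. Markers of endothelium and of alveolar and airway epithelium were read in every group, with mean values over the list of 3.42 to 4.25 and 4.24 to 5.07. Klf15 was at 1.95 to 4.29 on the wild-type arrays and at -0.89 to 1.37 on the knockout arrays, with no overlap. The glucocorticoid targets Tsc22d3 and Fkbp5 were higher with dexamethasone at 4 h in both genotypes, by 1.54 and 3.07 in wild type and by 1.70 and 4.22 in the knockout. The 7 knockout saline arrays stood apart from the other 22 in the ratio of brighter to dimmer probes of the same gene, computed over 2543 genes. The mean over these genes of that log2 ratio, centred over all arrays, was -0.368 to -0.115 on the knockout saline arrays and -0.0837 to 0.286 on the others. These 7 arrays enter every dexamethasone effect in the knockout, every genotype comparison under saline and every difference of effects between genotypes, and no version of those results without them was possible. The wild-type effects and the genotype comparisons under dexamethasone use them only for the pooled spread.

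Dexamethasone lowered a large share of the family in all 4 comparisons with saline. A gene is said to have changed where limma's adjusted p, over all 15346 genes, was under 0.05. In wild type at 4 h, 25 of the 42 members (59.5%) were lower and 1 was higher, where 22.2% of all genes tested were lower and 14.4% higher. In wild type at 8 h, 22 members (52.4%) were lower and 0 higher, against 14.3% and 9.21% of all genes; at an unadjusted p under 0.05, limma had 1 member higher there. In the knockout, 22 members were lower and 1 higher at 4 h, against 17.8% and 24.7% of all genes, and 22 were lower and 3 higher at 8 h, against 17.7% and 24.9%. The median log2 change over the members was -0.79 and -0.94 in wild type at 4 and 8 h and -0.83 and -0.71 in the knockout, beside medians over all genes of -0.03, -0.06, 0.05 and 0.10. Among the 34 members well above background on every array, 20, 19, 18 and 18 were lower in these comparisons, in the same order. Receptors were lower in 10, 9, 9 and 10 of 12 cases, and ligands in 15, 13, 13 and 12 of 30. Single arrays moved the small counts of higher members. Without saline replicate 34 or dexamethasone replicate 49, 0 members were higher in wild type at 4 h, and without dexamethasone replicate 54, 1 was at 8 h. In the knockout at 4 h, 2 were higher without knockout dexamethasone replicate 60 of that time. The same count arose without wild-type dexamethasone replicate 50 or 52 at 4 h or knockout dexamethasone replicate 61 or 64 at 8 h. In the knockout at 8 h, 5 were higher without knockout saline replicate 41 of 4 h. Of the arrays named here for the knockout, only replicate 60 was in the groups compared, and the others entered through the pooled spread. In whole lung, fewer cells of a type and less RNA per cell cannot be told apart.

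There were 14 members that fell in all 4 comparisons, where 6.25% of all genes did so. They comprised 6 ligands (Ccl12, Ccl4, Ccl5, Ccl21a, Cx3cl1 and Xcl1) and 8 receptors (Ccr2, Cx3cr1, Ccr6, Ccr7, Ccr9, Cxcr3, Cxcr5 and Cxcr4). Another 7 members passed the threshold in none of the 4 comparisons (Ppbp, Ccl17, Ccl19, Ccl20, Cxcl13, Cxcr2 and Ccr10). The share of all genes that passed in none was not counted. Some slides held 1 array of each of the groups compared. Within them, every called member kept its sign, 26 of 26 on each of 2 slides in wild type at 4 h, 22 of 22 on 1 slide in wild type at 8 h, 23 of 23 on 1 slide in the knockout at 4 h and 25 of 25 on each of 2 slides in the knockout at 8 h. Those arrays also entered the fits that made the calls, so a matching sign was largely set in advance and is no independent check. The counts of members depended on background correction. With normexp, a model-based correction of the spot signal, 14 members were lower in wild type at 8 h and 9 in the knockout at each time. The share of all genes lower with normexp is not given, so these counts cannot be set beside it. Fitting only the groups compared ended the wild-type calls at 8 h of Cxcl15, Ccl12, Cxcl16, Ccr2, Ccr3, Cx3cr1 and Ccr9, with the same changes and adjusted p of 0.0626 to 0.145.

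**Figure D1:**
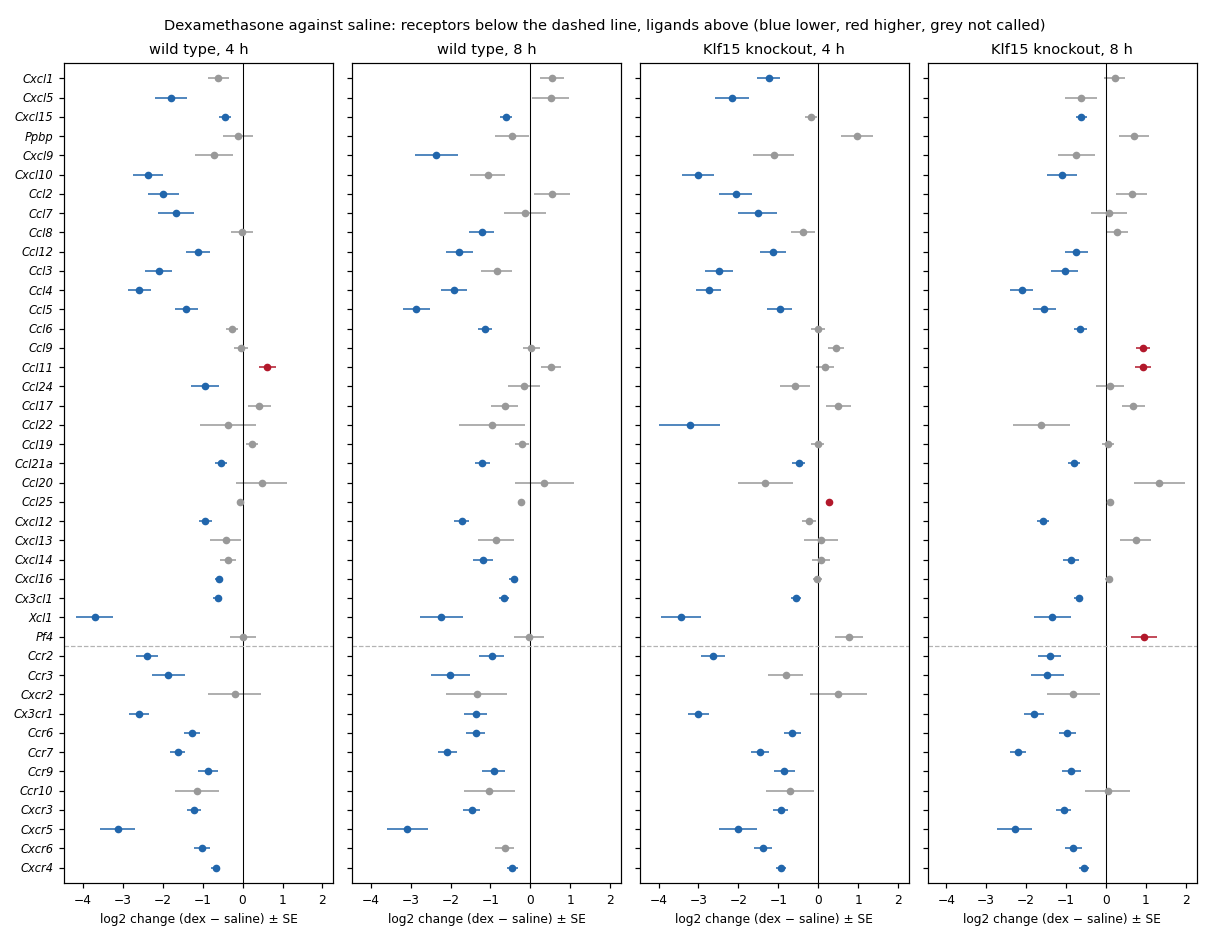
Log2 change with dexamethasone against saline (x axis, log2 units, bars are standard errors) for each of the 42 members tested, in wild type and Klf15 knockout at 4 and 8 h. Blue points are lower and red points higher at an adjusted p under 0.05, grey points did not pass; 25, 22, 22 and 22 members are blue, and 10, 9, 9 and 10 of these are receptors.

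Promoter windows were looked at because several inflammatory ligands moved together. RefSeq windows on GRCm38.p6 were found for 33 members. Ccl2, Ccl7, Ccl4, Ccl5 and Cxcl5, which fell at 4 h in both genotypes, were among those without a window. In the 250 bases before the start, a match to the NF-kB consensus, searched on both strands, was found in 8 of these 33 (24.2%): Cxcl1, Cxcl2, Cxcl10, Ccl9, Ccl20, Ccr1, Ccr3 and Ccr6. Of all 32851 windows, 7.25% held a match. For every motif a member counts if any of its windows matched, while the share of all is over single windows. Of the members with an NF-kB match, Cxcl2 and Ccr1 were not tested for change. With dexamethasone Ccl20 was not called and Ccl9 was called only as higher. The interferon response element was in 3 members (Cxcl10, Ccl19 and Cxcl14; 9.1%) and in 2.98% of all windows, the AP-1 letters TGANTCA in 4 members (Ppbp, Cxcl10, Ccl9 and Ccr3; 12.1%) and in 6.75%, and the glucocorticoid receptor consensus in 0 members and in 0.39%. Each motif was searched by itself, a base may belong to matches of several motifs, and overlapping matches are shown as 1 stretch. The 4 windows printed here end at the base before the start and represent a neutrophil attractant with a match, an interferon-induced ligand with several matches, the ligand with the largest fall, and a steadily made ligand. Capitals mark NF-kB matches and, in Cxcl10, also the interferon response element. The windows are chr5:90891095-90891244 (plus strand) for Cxcl1, chr5:92348890-92349109 (minus) for Cxcl10, chr1:164935523-164935672 (minus) for Xcl1 and chr6:117168385-117168534 (plus) for Cxcl12.
Cxcl1: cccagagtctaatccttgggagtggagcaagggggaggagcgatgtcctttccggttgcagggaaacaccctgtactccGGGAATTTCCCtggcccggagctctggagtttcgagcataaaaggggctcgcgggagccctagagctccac
Cxcl10: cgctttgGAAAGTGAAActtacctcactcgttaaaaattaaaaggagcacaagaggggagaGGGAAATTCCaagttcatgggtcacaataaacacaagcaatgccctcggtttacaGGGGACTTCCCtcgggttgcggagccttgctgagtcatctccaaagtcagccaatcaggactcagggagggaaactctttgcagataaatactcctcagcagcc
Xcl1: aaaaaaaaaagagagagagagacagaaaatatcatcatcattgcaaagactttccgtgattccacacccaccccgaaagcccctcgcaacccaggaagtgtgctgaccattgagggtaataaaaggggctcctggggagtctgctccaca
Cxcl12: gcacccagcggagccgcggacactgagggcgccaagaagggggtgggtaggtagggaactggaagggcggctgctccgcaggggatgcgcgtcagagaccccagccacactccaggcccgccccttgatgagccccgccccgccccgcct
Cxcl1 has 1 stretch in capitals and Cxcl10 has 3, while Xcl1 and Cxcl12 have none in the bases shown. Many members also lie side by side in the genome, in the RefSeq gene order of GRCm38.p6: Ccl2, Ccl7, Ccl11, Ccl12 and Ccl8 form 1 run on chromosome 11, and Ccl5, Ccl9, Ccl6, Ccl3 and Ccl4 another.

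Among the ligands that draw neutrophils through Cxcr2, Cxcl1 and Cxcl5 were lower at 4 h in the knockout, and Cxcl5 also in wild type, near background, but neither passed the threshold at 8 h. Cxcl1, made by epithelium and macrophages, was at -3.86, -4.01 and -4.47 on the knockout saline arrays at 4 h and at -5.35, -5.21, -5.09 and -5.77 with dexamethasone. All 4 treated arrays lay below the 3 saline arrays, a log2 change of -1.24 (SE 0.284, limma adjusted p = 0.00109). In wild type at 4 h, Cxcl1 read -4.07, -4.07, -5.06 and -4.13 with saline and -5.72, -4.52, -4.35 and -5.17 with dexamethasone. Those groups overlapped, and the change of -0.60 did not pass (adjusted p = 0.0768), although it did without saline replicate 35 (-0.85, adjusted p = 0.0123), dexamethasone replicate 50 (-0.74) or dexamethasone replicate 51 (-0.80). With normexp the Cxcl1 change in the knockout at 4 h was -0.31 and did not pass (adjusted p = 0.816). At 8 h, the Cxcl1 changes were 0.54 in wild type and 0.22 in the knockout, neither past the threshold.

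Cxcl5, the epithelial neutrophil attractant, was close to background. With saline at 4 h the wild-type arrays read -7.41, -7.43, -7.05 and -6.53, of which 2 were well above background, and with dexamethasone -7.56, -9.27, -9.52 and -9.23, of which 1 was. The fitted change was -1.79 (SE 0.399, adjusted p = 0.000957), but it is no exact fold, since 3 of the 4 treated spots were not well above background. With those 3 raised to the lowest signal well above background on their array, the change was -0.09. Knockout arrays at 4 h read -6.89, -7.96 and -7.18 with saline and -9.39, -9.44, -9.68 and -9.52 with dexamethasone, none of the latter well above background. The fitted change there was -2.17 (adjusted p = 0.00028), but set against the background the level was at least 1.06-fold lower. With normexp the sign turned in both genotypes, to 0.08 in wild type and 0.12 in the knockout. Cxcl15, which is made by lung epithelium and draws neutrophils, was bright: it fell by 0.45 and 0.61 in wild type at 4 and 8 h and by 0.62 in the knockout at 8 h (adjusted p = 0.0194, 0.00657 and 0.000875), each on non-overlapping arrays. Saline replicate 33 had no Cxcl15 value at 4 h, since its spot was marked as an outlier, so 3 saline arrays entered there. The 4 h call for Cxcl15 was lost without wild-type saline replicate 36 or dexamethasone replicate 49 or 51, where the change was -0.38 to -0.44. Ppbp, a platelet chemokine, did not pass in any of these comparisons.

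**Figure D2:**
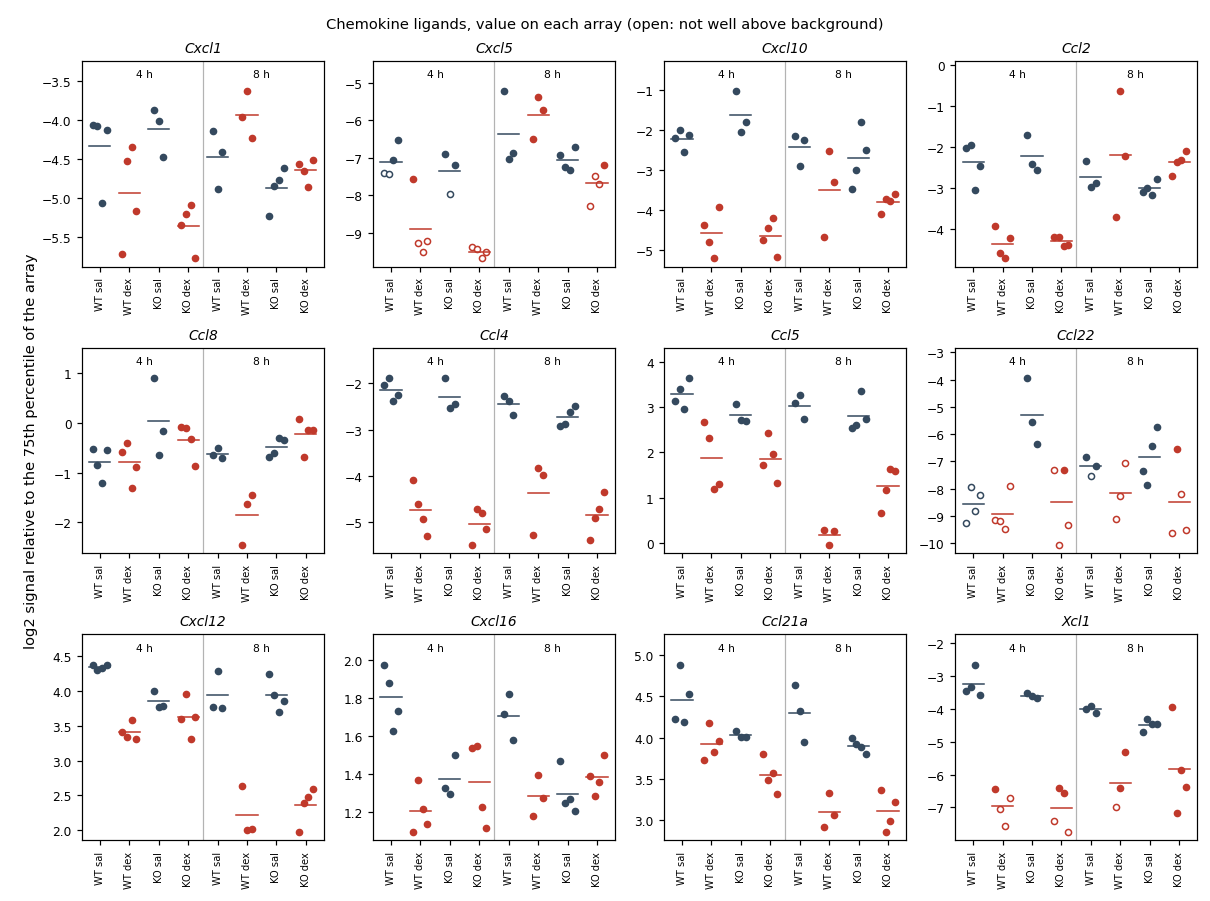
Value of 12 ligands on each array (y axis, log2 signal relative to the 75th percentile of the array) in the 8 groups, with saline in dark blue, dexamethasone in red, bars at group means and open circles for spots not well above background. The Ccl4 and Cxcl12 points of the 8 h dexamethasone groups lie below all 8 h saline points, whereas the Ccl2 points at 8 h spread from -3.71 to -0.65 in wild type.

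Of the interferon-induced ligands of Cxcr3, Cxcl10 was lower at 4 h in both genotypes. Wild-type saline arrays at 4 h gave -2.19, -1.99, -2.56 and -2.12, and dexamethasone arrays gave -4.38, -4.81, -5.20 and -3.93. Every treated array lay more than 1 log2 unit under the lowest saline array, a change of -2.36 (SE 0.381, adjusted p = 2.7e-05). In the knockout the values were -1.03, -2.05 and -1.80 with saline and -4.76, -4.44, -4.19 and -5.18 with dexamethasone, a change of -3.01 (SE 0.411, adjusted p = 3.14e-06). At 8 h the knockout change was -1.11 (adjusted p = 0.0221), and this call was lost without saline replicate 47 (-0.81), saline replicate 48 (-1.04) or dexamethasone replicate 61 (-1.01), and with normexp (-0.17, adjusted p = 0.821). In wild type at 8 h the change was -1.07, with an adjusted p of 0.0831, which became -1.55 and 0.0166 without dexamethasone replicate 55. Cxcl9, the other Cxcr3 ligand tested, read -3.44, -3.88 and -3.21 with saline and -6.56, -5.98 and -5.05 with dexamethasone in wild type at 8 h. These groups did not overlap (-2.35, SE 0.548, adjusted p = 0.00277), but with normexp the change was -1.25 and did not pass (adjusted p = 0.285). Cxcl9 did not pass in the other 3 comparisons, where its changes were -0.72, -1.12 and -0.74.

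The ligands of the monocyte receptor Ccr2 divided by time. Ccl2, the main monocyte attractant, was at -2.04, -1.96, -3.06 and -2.46 in wild type with saline at 4 h and at -3.94, -4.59, -4.72 and -4.22 with dexamethasone. The groups were well separated, with a change of -1.99 (SE 0.388, adjusted p = 0.000264). Knockout saline arrays at 4 h read -1.72, -2.42 and -2.57 and treated arrays -4.20, -4.21, -4.42 and -4.41, a change of -2.07 (SE 0.419, adjusted p = 0.000339). With normexp the latter was -1.16 and did not pass (adjusted p = 0.109). Wild-type arrays at 8 h read -2.36, -2.97 and -2.89 with saline and -3.71, -0.65 and -2.23 with dexamethasone, and the change of 0.55 did not pass (adjusted p = 0.432). That group was divided by 1 array: without dexamethasone replicate 54, the lowest, the Ccl2 change at 8 h was 1.30 and passed (adjusted p = 0.0143). Knockout values at 8 h were -3.10, -3.01, -3.17 and -2.78 with saline and -2.72, -2.37, -2.31 and -2.10 with dexamethasone. All 4 treated arrays were above all 4 saline arrays there, but the change of 0.64 did not pass (adjusted p = 0.194).

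Ccl7, which also acts on Ccr2 and Ccr3, had changes of -1.68 and -1.51 at 4 h (adjusted p = 0.00489 in wild type and 0.015 in the knockout) and of -0.13 and 0.08 at 8 h, which did not pass. Its knockout call at 4 h was lost without saline replicate 41 (-1.29, adjusted p = 0.0719). Both Ccl7 calls ended with normexp, at -0.996 in wild type and -0.60 in the knockout (adjusted p = 0.145 and 0.485). Ccl12, the mouse ligand next to Ccl2, fell in all 4 comparisons, by 1.12 and 1.78 in wild type and by 1.13 and 0.74 in the knockout. The 4 adjusted p were 0.00463, 0.00052, 0.00667 and 0.0488, and the last was lost under several settings and without many single arrays, with changes of -0.30 to -0.80. The knockout call for Ccl12 at 4 h was lost without saline replicate 41 (-0.89, adjusted p = 0.0538), and both 4 h calls ended with normexp (-0.80 and -0.66, adjusted p = 0.0958 and 0.217). That in wild type at 8 h ended when only the groups compared were fitted (adjusted p = 0.0838). Ccl8, an attractant of monocytes and eosinophils, differed from these. In wild type at 8 h it read -0.64, -0.51 and -0.71 with saline and -2.46, -1.64 and -1.44 with dexamethasone, a change of -1.22 (SE 0.322, adjusted p = 0.00713) with no overlap. Without dexamethasone replicate 54 that change was -0.92 (adjusted p = 0.0637), and with the slide as a fixed block it was -0.90 (adjusted p = 0.0826). In the other 3 comparisons Ccl8 did not pass, with changes of -0.02, -0.37 and 0.27.

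Of the macrophage inflammatory proteins and related ligands, Ccl4 and Ccl5 fell in all 4 comparisons. Ccl4 was at -2.04, -1.89, -2.39 and -2.26 in wild type with saline at 4 h and at -4.09, -4.60, -4.92 and -5.30 with dexamethasone, a change of -2.58 (SE 0.285, adjusted p = 1.47e-07). The knockout change at 4 h was -2.75 (SE 0.307, adjusted p = 1.82e-07), from -1.89, -2.52 and -2.45 to -5.49, -4.71, -4.80 and -5.14. It was still lower at 8 h, by 1.92 in wild type and 2.11 in the knockout (adjusted p = 0.000145 and 3.05e-06), again without overlap. Ccl3, its neighbour in the genome, fell by 2.10 and 2.48 at 4 h (adjusted p = 2.44e-05 and 7.47e-06). At 8 h Ccl3 fell by 1.04 in the knockout (adjusted p = 0.0156), a call lost without saline replicate 47 (-0.92, adjusted p = 0.0518), and its change of -0.84 in wild type did not pass. With normexp the knockout change of Ccl3 at 8 h was 0.28, and its changes at 4 h, -0.92 and -0.67, did not pass. Without dexamethasone replicate 55 the wild-type change of Ccl3 at 8 h was -1.38 and passed (adjusted p = 0.00894). Ccl4 kept its call with normexp in wild type at 4 h and lost it in the other 3 comparisons, where the changes were -1.33, -1.37 and -0.64.

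Ccl5, made by T cells and NK cells among others, was bright, and its fitted fall in wild type was larger at 8 than at 4 h. That difference between times missed the threshold (-1.44, limma adjusted p = 0.0568). In wild type Ccl5 read 3.14, 3.40, 2.96 and 3.64 with saline at 4 h and 2.66, 2.32, 1.20 and 1.30 with dexamethasone, a change of -1.41 (SE 0.292, adjusted p = 0.000472). At 8 h, the saline arrays read 3.08, 3.26 and 2.74 and the treated arrays 0.29, -0.04 and 0.27. The gap between the nearest arrays was more than 2 log2 units and the change -2.86 (SE 0.337, adjusted p = 1.77e-06). In the knockout the changes were -0.97 at 4 h (adjusted p = 0.0163) and -1.54 at 8 h (SE 0.292, adjusted p = 0.000181). The 4 h knockout call for Ccl5 was lost without saline replicate 41 (-0.84), without dexamethasone replicate 60 (-0.79) and with the slide as a fixed block (-0.87). Ccl6, abundant in lung macrophages, fell by 1.14 and 0.64 at 8 h (adjusted p = 6.09e-05 and 0.0021) and did not pass at 4 h, where its changes were -0.26 and 0.00. Ccl9 was the exception in direction: it was higher in the knockout at 8 h, from 0.12, 0.18, 0.18 and 0.21 to 1.47, 0.67, 0.84 and 1.44 (0.93, SE 0.182, adjusted p = 0.000252). Its other 3 changes, -0.04, 0.03 and 0.45, did not pass.

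The eosinophil attractants Ccl11 and Ccl24 moved apart in wild type at 4 h. Ccl11 (eotaxin) read -1.86, -2.26, -1.92 and -1.83 with saline in wild type at 4 h and -1.23, -1.45, -1.35 and -1.37 with dexamethasone, a rise of 0.62 (SE 0.209, adjusted p = 0.0233). Treated and saline arrays did not overlap, but the call was lost without saline replicate 34 (0.52, adjusted p = 0.0793), without dexamethasone replicate 49 (0.58, adjusted p = 0.0582), with the slide as a fixed block (0.43, adjusted p = 0.107) and with normexp (0.55, adjusted p = 0.0743). Ccl11 also rose in the knockout at 8 h, by 0.92 (SE 0.209, adjusted p = 0.00105), from -2.19, -2.42, -1.69 and -1.39 to -0.77, -0.77, -0.88 and -1.57, with the groups overlapping at 1 array. Its changes of 0.51 in wild type at 8 h and 0.18 in the knockout at 4 h did not pass. Ccl24 fell by 0.94 in wild type at 4 h (adjusted p = 0.0344), a call that was lost with the slide as a fixed block (-0.88), without any 1 of 5 arrays (-0.84 to -0.96) and with normexp (-0.64, adjusted p = 0.269). Its changes of -0.16 in wild type at 8 h and of -0.58 and 0.10 in the knockout at 4 and 8 h did not pass. The knockout change at 4 h passed without dexamethasone replicate 57 (-0.96, adjusted p = 0.0249) and by the dimmer probe (-0.96, adjusted p = 0.0333).

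Ccl22 and Ccl17, ligands of Ccr4 made by dendritic cells and macrophages, gave 1 call in these comparisons. Ccl22 was not well above background on any of the 4 wild-type saline arrays at 4 h, and read -3.94, -5.54 and -6.37 on the 3 knockout saline arrays, where it was. With dexamethasone the knockout arrays at 4 h read -7.31, -10.06, -7.31 and -9.32, of which 1 was well above background. The fitted change was -3.22 (SE 0.765, adjusted p = 0.00152), and with the 3 dim spots raised to the lowest signal well above background on their array it was -2.12. With normexp the change was -0.33 (adjusted p = 0.854). Ccl17 did not pass in any of the 4 comparisons, with changes between -0.65 and 0.68.

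Among homeostatic ligands, Cxcl12 and Ccl21a were bright and lower. Cxcl12, the ligand of Cxcr4 made by stroma and endothelium, read 3.77, 4.28 and 3.76 in wild type with saline at 8 h and 2.63, 2.0015 and 2.01 with dexamethasone, a change of -1.72 (SE 0.183, adjusted p = 4.75e-07). Knockout arrays at 8 h read 4.25, 3.95, 3.70 and 3.86 with saline and 1.98, 2.38, 2.47 and 2.59 with dexamethasone, a change of -1.58 (SE 0.159, adjusted p = 5.24e-08). Every treated array at 8 h was more than 1 log2 unit below every saline array of its genotype. At 4 h the wild-type values went from 4.37, 4.30, 4.34 and 4.38 to 3.41, 3.34, 3.59 and 3.30, a change of -0.94 (SE 0.159, adjusted p = 5.01e-05), and the knockout change of -0.23 did not pass by the brighter probe (adjusted p = 0.316). The knockout change did pass by the dimmer probe (-0.90, adjusted p = 0.000272) and by the mean of the probes (-0.56, adjusted p = 5.21e-06). It also passed with quantile normalization (-0.45, adjusted p = 0.0378) and in the deposited table (-0.47, adjusted p = 0.0369). Ccl21a, which draws T cells and dendritic cells to lymphatics through Ccr7, fell by 0.54 and 1.20 in wild type (adjusted p = 0.00809 and 3.02e-05) and by 0.49 and 0.79 in the knockout (adjusted p = 0.0207 and 0.000249). The 4 h knockout call for Ccl21a was lost without saline replicate 41 (-0.47, adjusted p = 0.0626) and without dexamethasone replicate 60 (-0.42, adjusted p = 0.0642), and with normexp (-0.50, adjusted p = 0.0877). Cxcl14 fell by 1.19 and 0.88 at 8 h (adjusted p = 0.000771 and 0.00152) and did not pass at 4 h, with changes of -0.37 and 0.06.

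The other homeostatic ligands gave few calls. Ccl19, the other Ccr7 ligand, did not pass in any comparison, with changes between -0.21 and 0.24. Cxcl13, the B-cell attractant, had changes between -0.87 and 0.74 and also did not pass. Ccl20, the ligand of Ccr6, was dim and had changes of 0.47 and 0.35 in wild type and of -1.32 and 1.34 in the knockout, none past the threshold. Ccl25, a ligand of Ccr9, was higher by 0.28 in the knockout at 4 h by its brighter probe (adjusted p = 0.0109). The dimmer Ccl25 probe gave -0.06 there.

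Cx3cl1 (fractalkine) and Cxcl16 are made as membrane-anchored proteins. Cx3cl1 changed by similar amounts in all 4 comparisons, falling by 0.62 and 0.66 in wild type and by 0.56 and 0.68 in the knockout (adjusted p = 0.000152, 0.000769, 0.000918 and 5.36e-05). Its saline arrays at 4 h read 2.38, 2.38, 2.30 and 2.34 in wild type and its treated arrays 1.70, 1.64, 1.91 and 1.66, with no overlap. Cxcl16, which binds Cxcr6, fell in wild type by 0.60 at 4 h and 0.42 at 8 h (adjusted p = 3.61e-05 and 0.00863), the latter lost without saline replicate 38 (-0.36, adjusted p = 0.0529) and with normexp (-0.43, adjusted p = 0.0661). In the knockout its brighter probe changed by -0.02 and 0.09 and did not pass, while its dimmer probe fell and passed at both times (-0.66 and -0.59, adjusted p = 0.0014 and 0.00195).

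Xcl1 (lymphotactin), a product of NK cells and activated T cells, had the largest fitted fall of the family. Wild-type arrays at 4 h read -3.44, -3.33, -2.65 and -3.57 with saline and -6.45, -7.05, -7.56 and -6.72 with dexamethasone, of which 1 treated array was well above background. The fitted change was -3.70 (SE 0.463, adjusted p = 9.4e-07), or -3.61 with the 3 dim spots raised to the lowest signal well above background, with a gap of more than 2 log2 units between the groups. In the knockout at 4 h it was -3.44 (SE 0.5, adjusted p = 7.23e-06). At 8 h it was -2.23 in wild type (adjusted p = 0.0035). Knockout values at 8 h were -4.70, -4.30, -4.47 and -4.47 with saline and -3.93, -7.17, -5.85 and -6.38 with dexamethasone, so that 1 treated array was above all saline arrays. That change, -1.35 (adjusted p = 0.0221), was lost without dexamethasone replicate 62 (-0.90), without dexamethasone replicate 64 (-1.16) and without saline replicate 46 (-1.28), and with normexp it was 0.41. None of the 4 Xcl1 calls held with normexp, where the other changes were -1.56, -0.96 and -0.996. Pf4, a platelet chemokine, had changes of 0.01 and -0.03 in wild type. In the knockout it rose by 0.95 at 8 h (adjusted p = 0.0231), where arrays overlapped, and the call was lost without saline replicate 47 (0.79), saline replicate 48 (0.86), dexamethasone replicate 62 (0.85) or dexamethasone replicate 64 (0.61), and with normexp (0.90).

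Among receptors of myeloid cells, Ccr2 and Cx3cr1 were lower in all 4 comparisons. Ccr2, which brings inflammatory monocytes into tissue, read -0.80, 0.35, -0.84 and -0.81 in wild type with saline at 4 h and -2.64, -3.35, -3.06 and -2.63 with dexamethasone, a change of -2.40 (SE 0.279, adjusted p = 3.3e-07). In the knockout at 4 h it went from -0.50, -0.45 and -0.61 to -3.33, -3.41, -2.73 and -3.16, a change of -2.64 (SE 0.301, adjusted p = 2.48e-07). Neither pair of groups overlapped. At 8 h the falls were 0.97 in wild type (adjusted p = 0.0307) and 1.41 in the knockout (adjusted p = 0.000278). The wild-type groups met at 1 value on the printed scale, with saline at -0.63, -1.75 and -0.70 and dexamethasone at -2.39, -1.75 and -1.85. The 8 h call for Ccr2 in wild type was lost without saline replicate 37 (-0.77), saline replicate 39 (-0.81) or dexamethasone replicate 54 (-0.78). With normexp the 8 h changes of Ccr2 were -0.85 and -0.94, and neither passed.

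Cx3cr1, the fractalkine receptor of patrolling monocytes, NK cells and macrophages, read -1.21, -0.84, -1.51 and -1.56 in wild type with saline at 4 h and -3.05, -3.96, -4.18 and -4.29 with dexamethasone. The change was -2.59 (SE 0.247, adjusted p = 1.59e-08). In the knockout at 4 h, -0.79, -1.35 and -1.38 with saline became -4.13, -3.96, -4.14 and -4.47, a change of -3.00 (SE 0.267, adjusted p = 5.47e-09). All treated arrays were below all saline arrays in both genotypes. At 8 h it fell by 1.37 and 1.80 (adjusted p = 0.00108 and 3.96e-06), and with normexp by smaller amounts that did not pass (-1.06 and -0.93). Ccr3, the eotaxin receptor of eosinophils, fell by 1.86 and 2.004 in wild type (adjusted p = 0.001 and 0.00347) and by 1.47 in the knockout at 8 h (adjusted p = 0.00635), while its knockout change at 4 h, -0.82, did not pass. With normexp the 3 Ccr3 calls were lost (-0.93, -0.93 and -0.06). Cxcr2, the neutrophil receptor for Cxcl1 and Cxcl5, varied widely within groups, from -3.49 to 0.13 in wild type with saline at 4 h, and did not pass in any of the 4 comparisons. Saline replicate 34 was the array with the highest Cxcr2 value, and the mean over neutrophil markers ran from -0.70 to 2.04 in that group; the part of these cells in the spread was not tested.

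**Figure D3:**
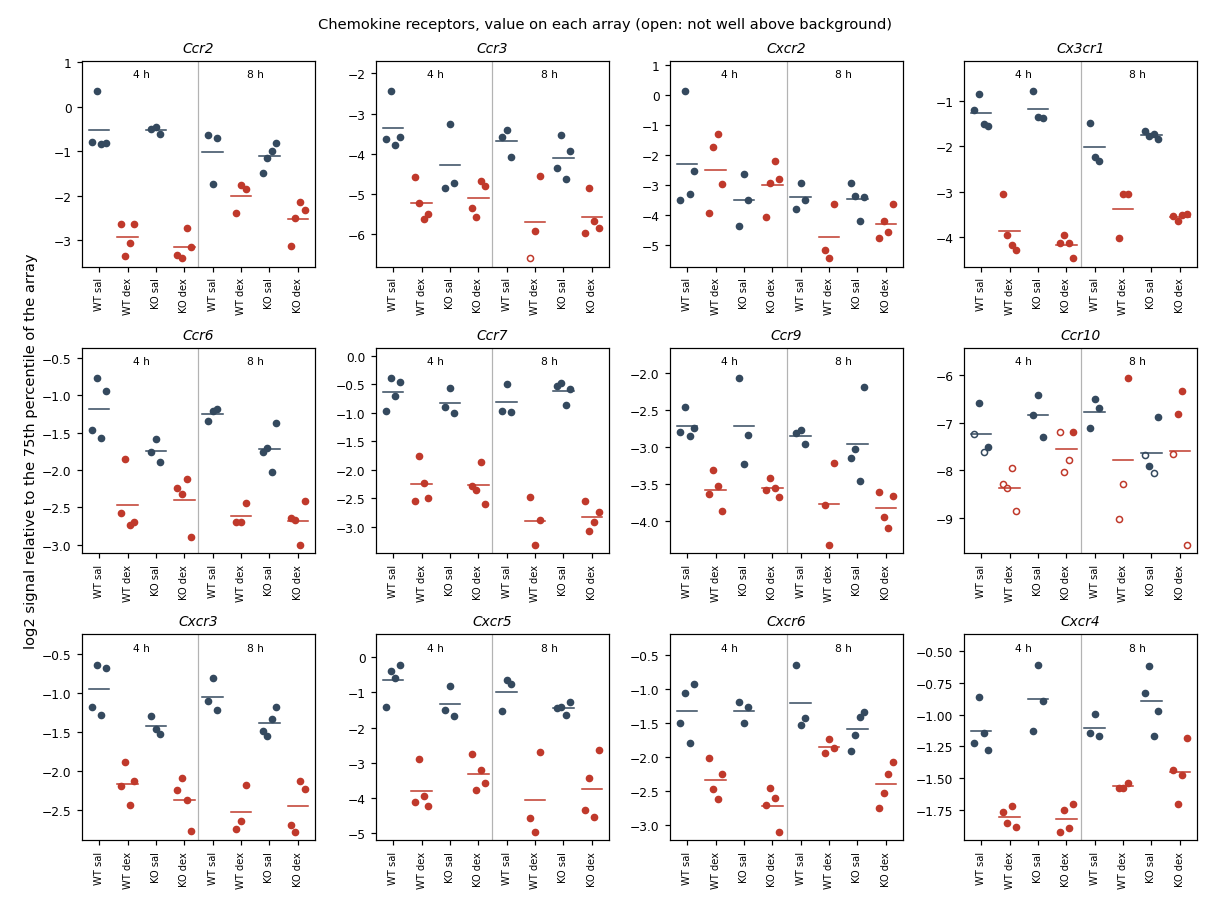
Value of the 12 receptors tested on each array (y axis, log2 signal relative to the 75th percentile of the array) in the 8 groups, with saline in dark blue, dexamethasone in red, bars at group means and open circles for spots not well above background. Ccr7, Cxcr3 and Cxcr5 show treated arrays below all saline arrays of the same genotype at both times, while Cxcr2 and Ccr10 overlap in most comparisons.

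Receptors of lymphocytes fell in most cases. Cxcr5, which places B cells in follicles, read -1.42, -0.40, -0.60 and -0.22 in wild type with saline at 4 h and -4.10, -2.89, -3.93 and -4.23 with dexamethasone, a change of -3.13 (SE 0.44, adjusted p = 4.84e-06). At 8 h the wild-type change was -3.08 (SE 0.508, adjusted p = 9.54e-05), and the knockout changes were -1.998 and -2.29 (adjusted p = 0.00153 and 0.000215). No saline array overlapped a treated one in any of the 4 comparisons. Ccr7, the receptor that guides naive T cells and mature dendritic cells, read -0.97, -0.39, -0.70 and -0.45 with saline and -2.54, -1.76, -2.23 and -2.50 with dexamethasone in wild type at 4 h. The change was -1.63 (SE 0.197, adjusted p = 6.04e-07), and it was -2.08 in wild type at 8 h, -1.46 in the knockout at 4 h and -2.21 in the knockout at 8 h (adjusted p = 6.95e-07, 7.76e-06 and 8.43e-09). Cxcr3, the receptor of Cxcl9 and Cxcl10 on effector T and NK cells, fell by 1.21 and 1.47 in wild type (adjusted p = 1.01e-05 and 1.71e-05) and by 0.94 and 1.06 in the knockout (adjusted p = 0.00044 and 5.5e-05). Normexp ended both knockout calls of Cxcr3 (-0.64 and -0.63) and that of Cxcr5 at 8 h (-1.07, adjusted p = 0.0823).

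Ccr6, found on B cells and on T helper cells that make interleukin 17, fell by 1.27 and 1.37 in wild type (adjusted p = 2.4e-05 and 0.000145) and by 0.65 and 0.96 in the knockout (adjusted p = 0.0202 and 0.000531). Its knockout call at 4 h was lost without saline replicate 43 (-0.57) and without dexamethasone replicate 60 (-0.48), and normexp ended both knockout calls of Ccr6 (-0.42 and -0.47). Ccr9, the receptor of gut-homing T cells, fell by 0.87 and 0.92 in wild type and by 0.85 and 0.87 in the knockout (adjusted p = 0.00704, 0.0195, 0.0122 and 0.0061). At 8 h in wild type the Ccr9 call was lost without any 1 of 4 arrays (-0.65 to -0.92), and at 4 h in the knockout without saline replicate 41 (-0.52, adjusted p = 0.131). None of the 4 Ccr9 calls held with normexp (-0.62 and -0.67 in wild type, -0.41 and -0.20 in the knockout; adjusted p = 0.222, 0.345, 0.518 and 0.667). Cxcr6, the receptor of Cxcl16 on T and NK cells, fell by 1.02 in wild type at 4 h and by 1.39 and 0.82 in the knockout (adjusted p = 0.000447, 2.72e-05 and 0.00296), and its change of -0.65 in wild type at 8 h missed the threshold (adjusted p = 0.0551). Its knockout call at 8 h ended with normexp (-0.47). Ccr10, a receptor of skin-homing T cells and plasma cells, was not well above background on any of the 4 wild-type dexamethasone arrays at 4 h, and its changes of -1.14, -1.03, -0.70 and 0.04 did not pass. Cxcr4, carried by most leukocytes, fell by 0.67 and 0.46 in wild type and by 0.94 and 0.55 in the knockout (adjusted p = 8.34e-05, 0.0174, 3.41e-06 and 0.000664). The call in wild type at 8 h was lost without saline replicate 38 (-0.40) or dexamethasone replicate 55 (-0.45).

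The change with dexamethasone at 8 h was then tested against that at 4 h. In wild type, 4 members differed (5.96% of all genes did, 3.11% lower and 2.84% higher), and in the knockout 3 did (3.06% of all genes, 1.84% lower and 1.21% higher). Ccl2 differed in both, with a change that was 2.53 higher at 8 than at 4 h in wild type (SE 0.593, adjusted p = 0.00982) and 2.71 higher in the knockout (SE 0.572, adjusted p = 0.00816), going from lower at 4 h to no call at 8 h. In wild type the change was also higher at 8 h for Ccr2 (1.43, adjusted p = 0.0486) and lower for Ccl6 (-0.88, adjusted p = 0.0274). Cxcl5 had a fitted difference of 2.30 there (adjusted p = 0.0238), which rests on treated spots at 4 h that were mostly not well above background and is no exact value; it was 0.21 with normexp and 0.85 in the deposited table (adjusted p = 1 and 0.123). In the knockout it was higher for Cxcl1 (1.46, adjusted p = 0.0382) and lower for Cxcl12 (-1.35, adjusted p = 0.00174). Wild-type dexamethasone replicate 54 weighed on this: without it 8 members differed in wild type and 5 in the knockout, and in wild type 1 did without saline replicate 38 and 2 did without dexamethasone replicate 50, 55 or 56. The Ccl2 differences held without each array in turn, but not with normexp (1.92 and 1.78), and that in wild type also not when only the groups compared were fitted (2.53, adjusted p = 0.11). The Cxcl12 difference in the knockout held without each array too, but by the dimmer probe it was -0.47 and did not pass (adjusted p = 0.481). The differences of Cxcl5 (1.97 to 2.23 where lost), Ccl6 (-0.73 to -0.90) and Ccr2 (1.06 to 1.52) in wild type and of Cxcl1 in the knockout (1.32 to 1.51) were each lost without some single arrays and with normexp. Of the 29 arrays left out in turn, 6 ended the call of Cxcl5, 5 that of Ccl6, 19 that of Ccr2 and 11 that of Cxcl1. Under saline, the arrays at 8 h differed from those at 4 h, averaged over the genotypes, in 2 members (3.21% of all genes, 1.17% lower and 2.04% higher): Cxcl15 by -0.71 (adjusted p = 0.000306) and Ccl9 by -0.51 (adjusted p = 0.0436, and 0.139 with normexp). That count was 1 without any one of many arrays. The differences between times in the knockout and this saline comparison use the knockout saline arrays that stood apart.

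**Figure D4:**
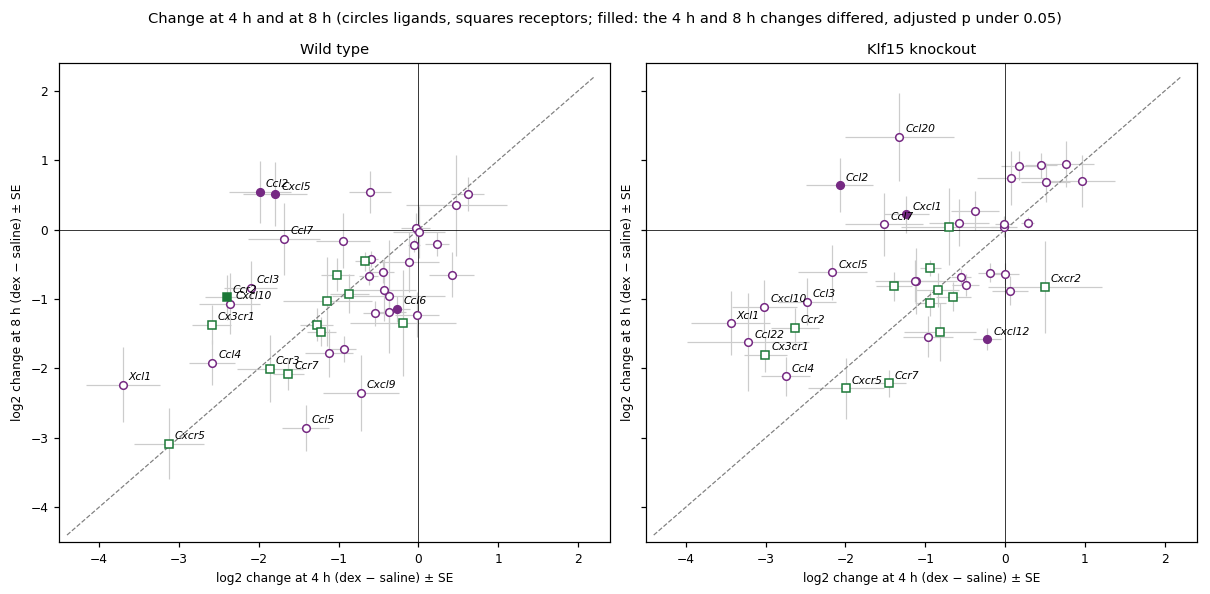
Log2 change with dexamethasone at 4 h (x axis) and 8 h (y axis), with standard errors, for 42 members in wild type and Klf15 knockout; the dashed line marks equal changes and filled symbols mark members whose changes differed (4 in wild type, 3 in the knockout). Ccl2 lies above the line in both genotypes, with differences of 2.53 and 2.71, and most receptors (squares) lie to the lower left.

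Few members differed between the genotypes. With saline at 4 h, 3 members differed (24.6% of all genes did, 18.6% lower in the knockout and 5.98% higher): Ccl22 was higher in the knockout, and Cxcl12 (-0.50, adjusted p = 0.0377) and Cxcl16 (-0.43, adjusted p = 0.00641) lower. The Cxcl12 call was lost without any 1 of 6 saline arrays (-0.45 to -0.51) and, like that of Cxcl16, with the slide as a fixed block (-0.25 and -0.23). For Ccl22 the knockout level was at least 4.15-fold higher than the wild-type one (adjusted p = 0.00433), a bound on the processed signal used here, since no wild-type array was well above background. The fitted change of 3.27 went to 1.23 with normexp (adjusted p = 0.378), which is under that bound, and to 2.11 with the slide as a fixed block (adjusted p = 0.0799), and passed with neither. With saline at 8 h, Cxcl16 was lower (-0.41, adjusted p = 0.0154) and the other 41 members did not pass, where 13% of all genes differed, 7.88% lower and 5.13% higher. The Cxcl16 call at 8 h was lost without wild-type saline replicate 37 (-0.40) or 38 (-0.35), and with normexp all 4 of these calls under saline ended (Cxcl12 -0.54, Cxcl16 -0.40 and -0.46). Under dexamethasone at 4 h, limma called 0 of 42 members (0.899% of all genes, 0.619% lower and 0.28% higher), with 4 at an unadjusted p under 0.05, 1 lower and 3 higher. Under dexamethasone at 8 h, 3 members differed (4.92% of all genes, 1.9% lower and 3.02% higher). Ccl8 read -2.46, -1.64 and -1.44 in wild type and 0.09, -0.69, -0.13 and -0.15 in the knockout, higher by 1.63 (SE 0.301, adjusted p = 0.00252) with no overlap. Ccl5 was higher by 1.09 (adjusted p = 0.0469), from 0.29, -0.04 and 0.27 to 0.66, 1.16, 1.64 and 1.59, and Cxcl5 had a fitted change of -1.80 (adjusted p = 0.0173), or -1.42 with the 3 dim knockout spots raised to the lowest signal well above background. With the slide as a fixed block neither Ccl8 (1.34, adjusted p = 0.0653) nor Ccl5 (0.90, adjusted p = 0.297) passed, and with normexp Ccl5 did not pass (0.99, adjusted p = 0.0781) and Cxcl5 turned to 1.01. The count of members was 5 under saline at 4 h without wild-type saline replicate 35 or knockout dexamethasone replicate 60. Under dexamethasone at 8 h it was 1 without wild-type replicate 56 and 5 without knockout replicate 62. The Ccl5 call was lost without many single arrays (0.97 to 1.15), and the Cxcl5 call without wild-type replicate 55 or 56 or knockout replicate 61 (-1.56 to -1.73).

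The dexamethasone effect itself differed between genotypes in 2 members at 4 h (16.3% of all genes, 3.11% lower and 13.1% higher) and 2 at 8 h (5.81%, 1.56% lower and 4.26% higher). At 4 h the fall by the brighter probes was smaller in the knockout for Cxcl12 (difference 0.71, SE 0.234, adjusted p = 0.0415) and Cxcl16 (0.58, SE 0.145, adjusted p = 0.0125). Cxcl16 read 1.98, 1.88, 1.63 and 1.74 with saline and 1.10, 1.37, 1.22 and 1.14 with dexamethasone in wild type, against 1.33, 1.30 and 1.50 and then 1.54, 1.55, 1.23 and 1.12 in the knockout. The treated groups overlapped and the saline groups did not. At 8 h the effects differed for Ccl8 (1.50, SE 0.426, adjusted p = 0.0404) and Cxcl16 (0.51, SE 0.151, adjusted p = 0.0479). None of these 4 differences passed with the slide as a fixed block (0.47, 0.32, 1.002 and 0.37 in the order given) or with normexp (0.65, 0.52, 1.39 and 0.49), and all but that of Cxcl16 at 4 h were lost without at least 1 array, with values of 0.60 to 0.73 for Cxcl12, 1.19 to 1.60 for Ccl8 and 0.45 to 0.56 for Cxcl16 at 8 h. At 4 h, 4 members differed without knockout dexamethasone replicate 59 and 1 without replicate 33, 34, 36, 43, 49, 52, 57 or 58. At 8 h, 4 did without knockout dexamethasone replicate 62, while 0 did without replicate 37, 38, 46, 47, 48, 54, 55, 63 or 64, and 1 without replicate 36, 39, 41, 43, 44, 45, 49, 51, 52 or 56. These differences rest on the knockout saline arrays that stood apart.

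For Cxcl12 and Cxcl16 the dimmer probe gave another picture of the genotypes. The brighter Cxcl12 probe had the knockout lower under saline at 4 h (-0.50), and the dimmer one had it higher (0.63, SE 0.177). With dexamethasone at 4 h, the brighter Cxcl12 probe changed by -0.94 in wild type and -0.23 in the knockout, and the dimmer one by -0.32 and -0.90, so that the difference of effects went from 0.71 to -0.58. By the dimmer probe the knockout change passed (adjusted p = 0.000272) and the wild-type change did not (adjusted p = 0.143). For Cxcl16 the dimmer probe changed by -0.78 and -0.52 in wild type and by -0.66 and -0.59 in the knockout, with differences between genotypes of 0.12 at 4 h and -0.07 at 8 h. The knockout falls by that probe passed at both times (adjusted p = 0.0014 and 0.00195). Both probes of each gene were well above background on all 29 arrays. The fall of Cxcl12 at 8 h was seen by both probes, at -0.96 and -1.37 by the dimmer one. Of the 12 members with 2 probes, Cx3cr1 had a dimmer probe with smaller changes (-0.67 and -0.76 in wild type, -1.63 and 0.00 in the knockout), and 3 of its 4 calls ended there (adjusted p = 0.396, 0.469 and 0.998). The dimmer Ccr3 probe ended all 3 Ccr3 calls, with -1.23 and -1.06 in wild type and -0.73 in the knockout at 8 h (adjusted p = 0.261, 0.487 and 0.501). Cxcr4 changed less by its dimmer probe in wild type (-0.41 and 0.07), with no call. In the knockout at 8 h its dimmer probe gave -0.56 and also ended the call (adjusted p = 0.052). Both probes of Ccl7, Ccl24 and Ccr2 gave like values in wild type at 4 h (-1.68 and -1.74, -0.94 and -1.16, -2.40 and -2.37). In wild type at 8 h the Ccr2 call was lost by the dimmer probe (-0.93, adjusted p = 0.193) and by the mean of its probes (-0.95, adjusted p = 0.0846).

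**Figure D5:**
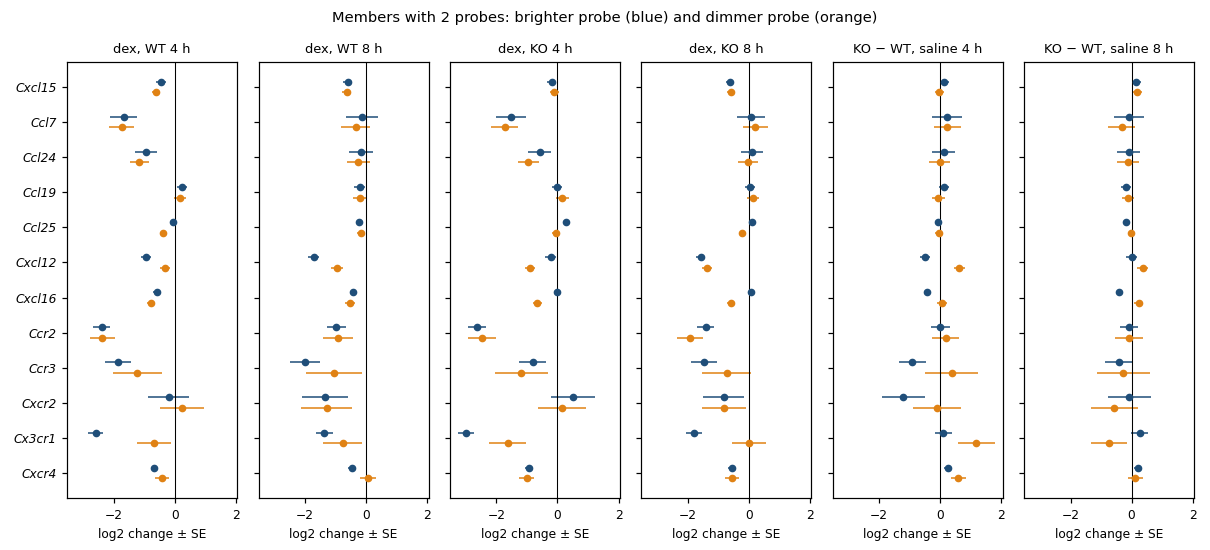
Log2 change with its standard error (x axis) by the brighter probe (blue) and the dimmer probe (orange) of the 12 members with 2 probes, for dexamethasone against saline in 4 comparisons and for knockout against wild type under saline. The 2 probes of Cxcl12 lie on opposite sides of 0 for the genotype comparison at 4 h, at -0.50 and 0.63.

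Other genes of the chemokine system were counted in the same fits. Counts and values are given in the order wild type at 4 and 8 h, knockout at 4 and 8 h. Among further receptors, Ccrl2 (-0.89 and -0.79) and Cxcr1 (-1.56 and -2.18) fell at 4 h in wild type and the knockout. Of 4 atypical receptors, which bind chemokines without G-protein signalling, Ackr4, the scavenger of Ccl19 and Ccl21, fell by 2.41, 0.86, 2.35 and 1.96, and Ackr3, the scavenger of Cxcl12, by 0.62, 0.70, 0.70 and 0.70. Ackr1 rose by 0.97 in wild type at 4 h alone among the 4 comparisons. Of 4 further ligands, Cxcl3, a neutrophil attractant of the Cxcl1 group, fell at 4 h (-1.94 and -2.57) and did not pass at 8 h (0.78 and 0.01), while Cxcl17, a mucosal chemokine, rose in wild type (0.79 and 0.99).

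Of 24 genes that carry receptor signals inside the cell, 13, 11, 10 and 11 were lower and 1, 1, 4 and 5 higher. Plcb2, a phospholipase activated by G proteins, fell by 1.18, 0.89, 0.57 and 0.73, and Prex1, an activator of Rac, by 0.86, 0.42, 0.99 and 0.92. Elmo1, a partner of the Rac activator Dock2, rose at 4 h by 1.52 in both genotypes. Of 18 cytokines, receptors and transcription factors that induce chemokines, 12, 5, 12 and 7 were lower and 1, 0, 2 and 1 higher. Relb, an NF-kB subunit, fell by 1.16 and 1.01 at 4 h, Il17ra, the interleukin 17 receptor, by 0.97, 0.70, 1.17 and 1.11, and Nfkbia, the inhibitor of NF-kB, rose by 1.03 and 1.37 at 4 h. Of 8 brakes on inflammatory mRNA and kinases, 4, 2, 5 and 6 were higher and 2, 1, 1 and 0 lower. Il1r2, the decoy receptor of interleukin 1, rose by 2.62 and 3.01 at 4 h, and Zfp36l1, an mRNA decay factor, fell by 0.45 and 0.29 at 4 h and rose by 0.31 in both genotypes at 8 h.

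Among markers of the leukocytes that carry these receptors, those of B, NK, T and dendritic cells were mostly lower, whereas monocyte markers went both ways and few eosinophil markers were lower. Of 9 B-cell markers, 7 were lower in each of the 4 comparisons, with median changes of -2.51, -2.35, -1.68 and -2.06; Cd22, for example, fell by 1.77 and 1.66 in wild type. The mean B-cell value was -2.30 to -1.60 on wild-type saline arrays and -4.21 to -3.55 on dexamethasone arrays at 4 h. All 8 NK-cell markers were lower in all 4 (medians -1.68, -2.54, -1.95 and -2.21), and 6, 7, 5 and 7 of 9 T-cell markers were (medians -1.59, -1.66, -0.67 and -1.47). Mean NK-cell values at 4 h in wild type were -2.33 to -1.90 with saline and -4.65 to -2.77 with dexamethasone, and mean T-cell values -2.48 to -1.87 and -3.46 to -2.94. Dendritic-cell markers were lower in 6, 4, 5 and 6 of 8 cases. For monocytes, 5, 2, 4 and 5 of 10 markers were lower and 2, 0, 2 and 4 higher, with Treml4 at -2.66 and Plac8 at -2.49 in wild type at 4 h and Ly6c2 higher by 0.48 there. Of 8 eosinophil, mast-cell and basophil markers, 1, 2, 1 and 1 were lower, among them Il5ra in all 4. This list was dim, at -5.92 to -5.03 on wild-type dexamethasone arrays at 4 h. Il5ra itself was not well above background on any wild-type dexamethasone array at 4 or 8 h, so its wild-type falls are no exact values.

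By limma, 0 of 9 epithelial markers were lower in the 4 comparisons, also at an unadjusted p under 0.05, and 0, 1, 4 and 4 were higher (2, 2, 4 and 6 unadjusted). Endothelial markers, among them Tek, were lower in 6, 4, 4 and 5 of 8. Neutrophil markers were lower in 1, 2, 0 and 4 and higher in 2, 0, 2 and 2 of 9, alveolar macrophage markers lower in 1, 0, 1 and 1 and higher in 2, 1, 2 and 3 of 8, and fibroblast and smooth-muscle markers lower in 0, 2, 0 and 0 and higher in 1, 1, 3 and 4 of 8. Platelet markers, the company of Pf4 and Ppbp, were higher in 0, 0, 3 and 1 of 6 and lower in 0 (0, 1, 0 and 0 at an unadjusted p under 0.05 by limma), and their mean value in the knockout at 4 h was -1.20 to -0.59 with saline and -0.46 to 0.07 with dexamethasone. The part that these cells had in the changes of the chemokine genes was not tested.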

How the data were processed

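RNA from 29 lungs was hybridised to one-colour Agilent arrays (Cy3), 1 per sample. The files are the deposited scanner output, with spot intensity as the authors' Feature Extraction software wrote it (version 10.7.3.1 per the file headers, 10.6 per the submitters' processing notes). The authors' deposited series table holds log2 values whose column medians were 8.28 to 8.30; its normalization is not stated, and it served as an alternative. The members and lists were chosen with earlier results of these data known.

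Here the processed intensity was taken to log2 and the 75th percentile of each array subtracted. Outlier spots were left out and spots of a probe averaged. A probe was kept if 3 or more arrays of any group had it well above background (33931 were), with the brightest per gene. Probes were named through accessions: 24836 of 41174 matched 1 gene and 16338 none. A model of 8 group means was fitted with limma 3.58.1 in R 4.3.3, with Benjamini-Hochberg adjustment over 15346 genes in each of 13 comparisons, after tests on simulated data. All members may be named; those with the largest changes in their role, or with a difference of effects, are given by array. Of pathway and marker lists, up to 3 genes of lowest p are named. The labels call samples biologic replicates, and precision is limited by how many arrays there are. Alternatives were quantile normalization, normexp (offset 50, on the median signal), other filters and probe rules, the slide as a block, only the groups compared, a trended variance, the deposited table and each array left out. Scaling on the median of all probes was added after seeing the data, as was raising spots not well above background to the lowest signal well above it on their array, which gives values with no test.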

Additional observations from a re-analysis of the deposited data

Results flagged for a closer look

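In 10 of 209 groups of 4 arrays tested, 1 array lay far from the others of its group; chance flags about 1 in 20. For wild-type saline at 4 h these were replicate 35 for Cxcl1 (-5.06, others -4.13 to -4.07) and Ccl12 (-2.72, others -2.12 to -2.02), and replicate 34 for Ccr2 (0.35, others -0.84 to -0.80) and Ccr3 (-2.45, others -3.79 to -3.59). For wild-type dexamethasone at 4 h it was replicate 49 for Cxcl5 (-7.56, others -9.52 to -9.23). For knockout dexamethasone at 4 h they were replicate 57 for Ccl24 (-2.12, others -3.76 to -3.57) and Ccl19 (1.58, others 1.12 to 1.19), and replicate 60 for Ccl9 (0.826, others 1.24 to 1.26). At 8 h they were knockout dexamethasone replicate 64 for Ccl11 (-1.57, others -0.88 to -0.77) and knockout saline replicate 48 for Ccl20 (-4.28, others -6.35 to -6.02).

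The effect of dexamethasone differed between genotypes, by limma's test of the difference itself, for Cxcl12 (0.71) and Cxcl16 (0.58) at 4 h and for Ccl8 (1.50) and Cxcl16 (0.51) at 8 h. It differed between 8 and 4 h in wild type for Cxcl5 (2.30, with most treated spots at 4 h not well above background), Ccl2 (2.53), Ccl6 (-0.88) and Ccr2 (1.43), and in the knockout for Cxcl1 (1.46), Ccl2 (2.71) and Cxcl12 (-1.35). None of the differences between genotypes passed with the slide as a fixed block or with normexp, and all use the knockout saline arrays that stood apart. That of Cxcl12 was -0.58 by the dimmer probe. Of the differences between times, only those of Ccl2 and Cxcl12 held without each array in turn, and only that of Cxcl12 passed with normexp.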

How the results depend on the processing

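Of the 116 calls of members over the 13 comparisons, 85 held without each array in turn and 42 under every setting that could be fitted. No paired analysis was possible because the groups compared share no replicate numbers. Normexp ended 56 calls and turned 5; a fixed slide block ended 17, and the cause was not tested. Counts moved by over 1.5 times as follows. With normexp there were 0 higher in wild type at 4 h, 14 lower in wild type at 8 h, 9 lower in the knockout at 4 h and 9 at 8 h, with no share of all genes beside them. Members higher in wild type at 4 h were 0 with a fixed slide block. Members higher in the knockout at 4 h were 0 with the mean or the dimmest probe, the fixed block or median scaling, and 2 with the all-array filter, the random block or only the groups compared. Genotype under saline at 4 h gave 0 members with normexp, 1 with mean probes or the fixed block and 6 with median scaling; at 8 h it gave 0 with normexp, mean or dimmest probe, only the groups compared or median scaling. Genotype under dexamethasone at 8 h gave 1 with normexp or the fixed block, 5 with a trended variance and 0 with only the groups compared. Differences of effects between genotypes at 4 h numbered 0 with normexp, mean or dimmest probe, the fixed block or the deposited table, and 1 with quantile normalization, the random block, only the groups compared or median scaling. At 8 h they numbered 0 with quantile normalization, normexp, the fixed block, the deposited table or median scaling, and 1 with no filter, mean or dimmest probe, the random block or only the groups compared. Differences between 8 and 4 h numbered 0 with normexp or only the groups compared and 9 with the random block in wild type, and 1 with normexp in the knockout. Saline at 8 against 4 h gave 1 with normexp, no filter, the dimmest probe or median scaling, and 4 with the deposited table.

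Leaving out each array gave 23 to 27 lower and 0 to 1 higher in wild type at 4 h, 19 to 23 and 0 to 1 at 8 h, 17 to 23 and 1 to 2 in the knockout at 4 h, and 19 to 22 and 2 to 5 at 8 h. Genotype counts ran from 2 to 5 and 0 to 1 under saline at 4 and 8 h, and from 0 to 0 and 1 to 5 under dexamethasone. Differences between genotypes ran from 1 to 4 and 0 to 4, those between times from 1 to 8 in wild type and 2 to 5 in the knockout, and saline at 8 against 4 h from 1 to 3.

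Signs turned with normexp for Cxcl5 at 4 h (0.076 in wild type, 0.12 in the knockout), Cxcl5 between genotypes under dexamethasone at 8 h (1.01), and Ccl3 (0.28) and Xcl1 (0.41) in the knockout at 8 h. With the dimmest probe they turned for Cxcr4 in wild type at 8 h (0.067), Ccl25 in the knockout at 4 h (-0.062), Cx3cr1 in the knockout at 8 h (0.0018), genotype under saline for Cxcl12 (0.63) and Cxcl16 (0.055 at 4 h, 0.24 at 8 h), and the differences between genotypes for Cxcl12 at 4 h (-0.58) and Cxcl16 at 8 h (-0.072). With mean probes the Cxcl12 genotype change at 4 h was 0.068. Signal over background limits Cxcl5, Ccl22, Xcl1 and Ccr10, which were not well above background in many treated spots.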
